A study of Homo sapiens with 7 samples.

Results

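The oxidative phosphorylation genes of a genome-wide CRISPR knockout screen were followed through growth and sorting. The members were the genes whose symbol in the guide table began with NDUF, UQCR, ATP5 or COX and a digit, or was SDHA, SDHB, SDHC or SDHD. There were 105 of them among 19112 genes, with 420 of 77441 guides, and 1000 of those guides were non-targeting controls. By their known roles, 46 genes belonged to complex I, 4 to complex II, 9 to complex III, 28 to complex IV and 18 to complex V. Symbols are those of the guide table, with the current symbol where it differs.

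The cells were clonal reporter derivatives of HCT116, a human colorectal carcinoma line, with a GFP reporter at the AAVS1 locus whose output depends on splicing of OGT intron 4. They were infected with the Brunello library (multiplicity of infection 0.3), were kept in puromycin for 8 days from day 2, and were given 1 µM thiamet G (TG), which blocks O-GlcNAcase and lowers reporter GFP, for 24 hours on day 9 with replenishment every 12 hours. Cells with high GFP were sorted at the end of day 10. The groups were 3 libraries of sorted cells, 3 of unsorted cells (input) and 1 of the guide pool, and both cell groups carried the guides and the TG treatment. The pilot replicate was grown at 100-fold coverage and the others at 300-fold, but the deposited values do not say which is which.

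Oxidative phosphorylation is the last step of respiration in the inner mitochondrial membrane. Complexes I and II pass electrons from NADH and succinate to ubiquinone, complex III passes them to cytochrome c, and complex IV passes them to oxygen. Complexes I, III and IV pump protons, and complex V, the ATP synthase, lets the protons flow back through its c-ring to make ATP. Assembly factors help to build a complex but are not part of the finished one. Some subunits also have isoforms that are made mainly in particular tissues. The subunits encoded in mitochondrial DNA were not among the members.

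Input libraries held 27817463 to 29511361 reads, sorted libraries 26155295 to 31047546 and the guide pool 35774845. The median member guide had 264.5 to 271 reads in input, 233.5 to 295 in sorted cells and 369 in the pool. In sorted cells 7.62 to 12.4% of member guides were at 0, against 7.26 to 10.8% of all guides, and in input 0 or 1 of the 420. The median member guide had an SD of 0.27 (log2) over the 3 input libraries and of 1.05 over the 3 sorted libraries. For all targeting guides these were 0.25 and 1.02, so the sorted libraries varied far more among themselves than the input libraries did.

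How far the guides of each gene were lost was read from the log2 ratio of input to guide pool. The source of the pool's DNA is not settled, so changes that arose before growth were not told apart from loss during growth. Each library was scaled to its median targeting guide, 1 was added, and the ratios of a gene's guides with at least 30 pool reads were averaged. With 1 pool library there was no test, and the SDs given are over the 3 input libraries. The median member was at -0.10, and the median of all genes was at -0.01. By library the members' median was -0.10, -0.015 and -0.12. Of the 105 members, 63 (60.0%) were below 0, against 51.3% of all genes. A gene was counted as low when it was at least 1.5-fold lower than the pool in each of the 3 input libraries. By this rule 3 members were low, UQCRH, ATP5G1 and ATP5J2, which is 2.86% of the members, and 634 of 19112 genes (3.32%) were low. The members' share was thus near that of all genes. For scale, the 84 cytosolic ribosomal protein genes had a median of -1.07 and 50 of them (59.5%) were low, whereas the 77 mitochondrial ribosomal protein genes had a median of -0.09 and 1 was low.

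By complex, the median log2 ratio of input to pool was -0.12 for complex I, -0.07 for complex II, 0.01 for complex III, 0.03 for complex IV and -0.20 for complex V. In complex V 15 of 18 genes were below 0, and in complex IV 13 of 28. The members' quartiles were -0.30 and 0.08, both lower than those of all genes, -0.23 and 0.19.

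**Figure D1:**
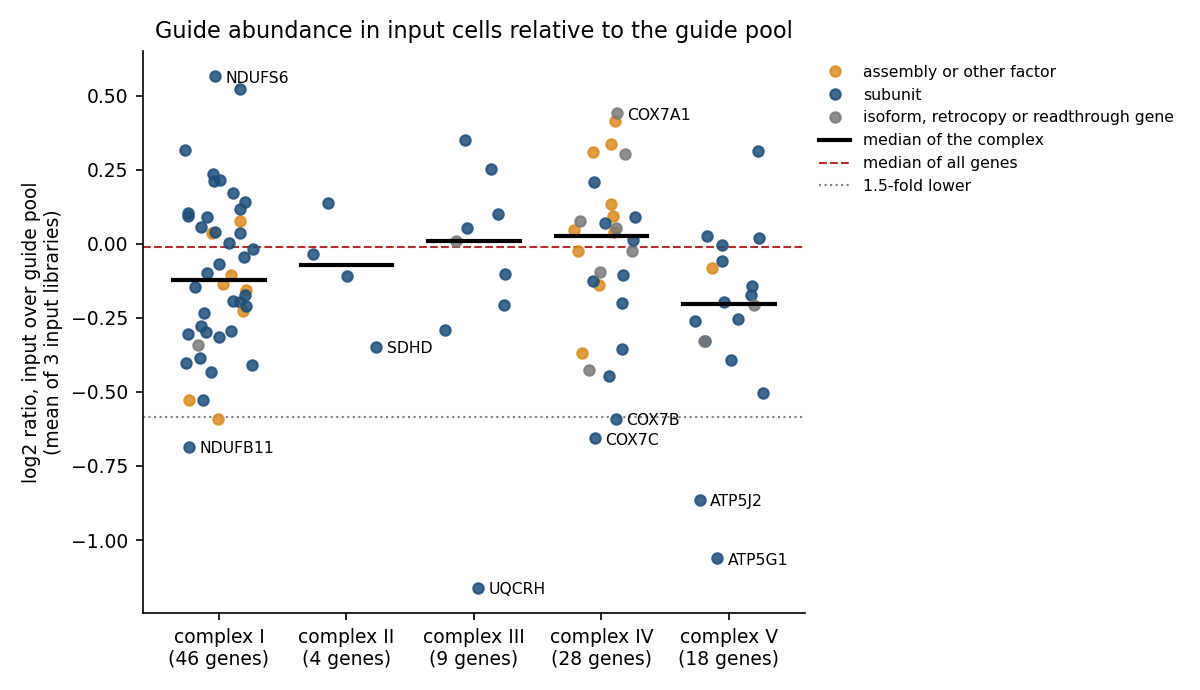
The vertical axis gives the log2 ratio of input to guide pool per gene (mean of 3 input libraries) for the 105 members by complex. Each point is 1 gene, coloured by role, black bars are medians of the complexes, the dashed line is the median of all genes and the dotted line marks 1.5-fold lower. Most genes lie near 0, and UQCRH, ATP5G1 and ATP5J2 lie furthest below.

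UQCRH, the hinge protein of complex III that helps cytochrome c dock, had the lowest ratio of all members, at -1.40, -1.03 and -1.05 in the 3 input libraries (mean -1.16 ± 0.21, SD, n = 3). Its mean rested on 1 of its 4 guides. The 4 guides are shown because their sequences differ in how often they occur in the genome. Each is printed in the direction of the guide, with the PAM, the bases next to the site that Cas9 needs, in capitals, and the hg38 positions are those of the 20 bases before it.

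UQCRH guide 1, chr1:46309097-46309116, plus strand: gtaggaggaagaggaagaggAGG
UQCRH guide 2, chr1:46303815-46303834, minus strand: tcgccttgccttacctcctcAGG
UQCRH guide 3, chr1:46310192-46310211, plus strand: tggagaaatgtgtaaaggccCGG
UQCRH guide 4, chr1:46310162-46310181, minus strand: ttgctctctcactgttgttaGGG

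Guide 1, a run of G and A in exon 2, had 1027 reads in the pool, which is a scaled count of 687. Its normalised count was 4.94, 16.6 and 13.9 in the input libraries, a mean log2 ratio of -5.89, and this was the lowest ratio among the 417 member guides with enough pool reads. Guides 2, 3 and 4 were at 0.24, 0.14 and 0.87, so all of them were at or above their pool level. Besides its site in UQCRH, guide 1 had 1 more perfect site followed by a PAM, in an intron of PKIB on chromosome 6. It had 96 further sites with 1 mismatch and 1183 with 2 mismatches. No other shown guide had more than 6 sites with 1 mismatch or more than 5 with 2 mismatches. Guides 3 and 4 also matched perfectly in UQCRHL, an intronless copy of UQCRH on the same chromosome, and in pseudogenes.

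All 4 guides of UQCRHL in turn matched a coding exon of UQCRH perfectly. Their ratios were 0.54, -1.10, 0.25 and 0.36, and the mean for UQCRHL was 0.01 ± 0.27. Of the 8 guides that cut UQCRH, 2 were therefore below their pool level, UQCRH guide 1 and UQCRHL guide 2.

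ATP5G1 (now ATP5MC1) encodes the c subunit of the ATP synthase rotor ring, as do ATP5G2 (ATP5MC2) and ATP5G3 (ATP5MC3). Its ratio was -0.75, -1.11 and -1.32 in the 3 input libraries (mean -1.06 ± 0.29). Its guides are shown because all 4 were below their pool level and each had 1 perfect site in the genome.

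ATP5G1 guide 1, chr17:48895208-48895227, minus strand: aatgtcccgggagacaacacTGG
ATP5G1 guide 2, chr17:48894418-48894437, minus strand: attcactgggctattcaagaAGG
ATP5G1 guide 3, chr17:48894369-48894388, plus strand: cagatccgctgttgtaccagGGG
ATP5G1 guide 4, chr17:48895164-48895183, plus strand: cagcaacttcccactccaggTGG

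The 4 guides cut between 13.0 and 42.4% of the coding length and had ratios of -2.55, -0.80, -0.52 and -0.38. Guides 1 and 2, the lowest, also had 5 and 3 sites with 1 mismatch, whereas guides 3 and 4 had 0. Whether cuts at such sites took part was not tested. Guide 1 went from a scaled pool count of 247 to 74.8, 36.8 and 25.2 in input. ATP5G2 was at -0.50 ± 0.20 with 4 of 4 guides below 0, and ATP5G3 was at 0.03 ± 0.06 with 1 of 4 below 0. The input libraries of ATP5G1 and ATP5G3 did not overlap in this ratio, and those of ATP5G2 lay between them.

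ATP5J2 (now ATP5MF), the f subunit of the membrane part of complex V, had a ratio of -0.69, -0.69 and -1.22 (mean -0.86 ± 0.30). Its guides are shown because those with low ratios were those with several perfect sites.

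ATP5J2 guide 1, chr7:99460155-99460174, minus strand: acttctggaggtcaaactggGGG
ATP5J2 guide 2, chr7:99460112-99460131, minus strand: atgcgggacttcagtcctagTGG
ATP5J2 guide 3, chr7:99459211-99459230, minus strand: tgaagaaggggagcatctcgGGG
ATP5J2 guide 4, chr7:99459256-99459275, minus strand: ttgcgtttgcaggttactacCGG

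Guide 1 had 3 perfect sites and a ratio of -1.12, and guide 3 had 5 and a ratio of -1.88. Guides 2 and 4 had 1 perfect site each and ratios of 0.04 and -0.50. The additional sites all lay in processed pseudogenes of the same gene, ATP5MFP2 and ATP5MFP5 for guide 1 and these with ATP5MFP3 and ATP5MFP4 for guide 3. All 4 guides of the readthrough gene ATP5J2-PTCD1 (now ATP5MF-PTCD1) cut in coding exons of PTCD1 and none in an exon of ATP5J2, so its ratio of -0.21 ± 0.23 does not measure loss of the f subunit.

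Guides with several perfect sites were more frequent among the members than in the library. Of the 420 member guides, 30 (7.14%) had more than 1 perfect site, against 4.04% of the 76441 targeting guides. Of the 45 additional sites, 37 lay in pseudogenes, 7 in a coding exon of another member and 1 in an intron. Among member guides with enough pool reads, 66 of 387 with 1 site (17.1%) and 11 of 30 with more than 1 (36.7%) had a mean ratio at least 1.5-fold below the pool. Among all targeting guides these shares were 16.3% and 29.2%. The median ratio of member guides was -0.07 with 1 site, 0.03 with 2 sites (19 guides) and -1.06 with 3 sites (8 guides). For all targeting guides it was 0.03, -0.06 and -0.32. In 16 member genes both kinds of guide were present, and in 10 of them the guides with several sites had the lower mean ratio. How far cuts at the additional sites took part in these ratios was not tested.

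Within other members the guides with several sites lay on either side of those with 1 site. In NDUFV2 they averaged 0.55 against -0.14, and in COX20 0.64 against -0.016. In the following genes they had the lower mean. SDHC guide 1 (3 sites) was at -1.002 and its other guides averaged 0.29. NDUFA5 guide 4 (3 sites) was at -1.14, the others averaging 0.52. SDHD guide 3 (4 sites) was at -1.36 but guide 4 (2 sites) at 0.07, the guides with 1 site averaging -0.05. COX7B guide 4 (3 sites) was at -1.37. Guide 2 of ATP5L2 (now ATP5MGL), which also matched a coding exon of ATP5L (now ATP5MG, the g subunit), was at -1.81, while the other guides of ATP5L2, a copy of that gene, averaged 0.17. With guides of 1 perfect site alone, a choice made after the data were seen, 1 of 104 members was low in the input, ATP5G1. Of all genes, 548 of 18736 (2.92%) were low in that run. The members' median was then -0.08 and that of all genes -0.003.

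**Figure D2:**
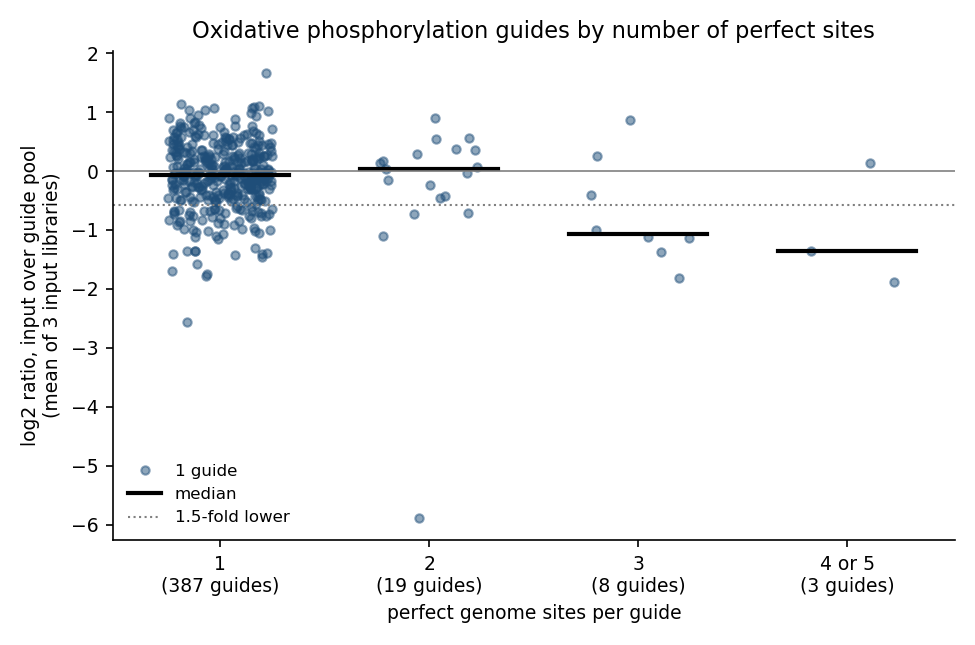
The vertical axis gives the log2 ratio of input to guide pool (mean of 3 input libraries) and the horizontal axis the number of perfect genome sites for the 417 member guides with at least 30 pool reads. Each point is 1 guide, black bars are medians and the dotted line marks 1.5-fold lower. Guides with 3 sites have a median of -1.06, and the single point near -6 is UQCRH guide 1.

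In complex I none of the 46 genes was low by the rule. The lowest were NDUFB11 (-0.69 ± 0.24), a supernumerary subunit of the membrane arm, the assembly factor NDUFAF4 (-0.59 ± 0.34) and the supernumerary subunit NDUFB1 (-0.53 ± 0.28). The 4 guides of each were below their pool level. Only 1 of the guides of NDUFB1 cut in a coding exon of the canonical transcript, the others cutting in a non-coding exon or an intron. The 7 core subunits, which carry the flavin and iron-sulfur centres or line the ubiquinone site, had a median ratio of 0.04, the 30 supernumerary subunits -0.11 and the 8 assembly factors -0.15. The highest was NDUFS6 (0.57 ± 0.26), a supernumerary subunit at the peripheral arm. Its highest guide, at 1.66, had 49 reads in the pool. The guides of the readthrough gene NDUFC2-KCTD14 cut in a coding exon of NDUFC2, and the genes were at -0.34 ± 0.16 and 0.04 ± 0.24.

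NDUFB11 guide 1, chrX:47144518-47144537, minus strand: ccccagaaccgaccacaccgTGG
NDUFB11 guide 2, chrX:47144475-47144494, minus strand: ggacgaaaacttgtatgagaAGG
NDUFB11 guide 3, chrX:47144577-47144596, plus strand: tggagaagctagattcccagCGG
NDUFB11 guide 4, chrX:47142693-47142712, plus strand: tgttccagacgtccaaaacgGGG

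These 4 guides of NDUFB11 are shown because the gene had the lowest ratio to the pool in complex I and each guide had 1 perfect site. Their ratios to the pool were -1.36, -0.04, -0.89 and -0.45.

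In complex II, the succinate dehydrogenase, SDHD was at -0.35 ± 0.28, SDHA at -0.11 ± 0.26, SDHC at -0.03 ± 0.08 and SDHB at 0.14 ± 0.13. SDHA and SDHB are the catalytic subunits, and SDHC and SDHD anchor them in the membrane. The values of SDHA and SDHB overlapped between libraries. In complex III, after UQCRH, the lowest were UQCR10 (-0.29 ± 0.06) and the Rieske iron-sulfur protein UQCRFS1 (-0.21 ± 0.21), and the highest was UQCRB (0.35 ± 0.25), a subunit near the ubiquinone site.

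In complex IV none of the 28 genes was low by the rule, with COX7C (-0.66 ± 0.24), COX7B (-0.59 ± 0.03) and COX6B1 (-0.45 ± 0.16) the lowest. These are supernumerary subunits found in most tissues, and COX7B was at -0.61, -0.56 and -0.61 in the 3 libraries with all its guides, on both sides of the 1.5-fold limit. The 11 ubiquitous subunits had a median of -0.13, the 9 assembly factors 0.10 and the 7 tissue-restricted isoforms 0.05. The highest value was that of COX7A1 (0.44 ± 0.06), the heart and muscle isoform.

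For the isoform pairs of complex IV, COX4I1 was at -0.36 ± 0.36 and COX4I2 at 0.08 ± 0.24. COX6A1 was at -0.13 ± 0.12 and COX6A2 at 0.05 ± 0.21. COX6B1 was at -0.45 ± 0.16 and COX6B2 at -0.02 ± 0.08. In these pairs the ubiquitous form had the lower mean, but the libraries of the first pairs overlapped. COX7A2 was at -0.11 ± 0.06 and COX7A1 at 0.44 ± 0.06, although 2 of the COX7A2 guides cut outside the coding exons. COX7B was at -0.59 ± 0.03, or -0.14 with its guides of 1 perfect site, and COX7B2 at 0.30 ± 0.13. COX8A was at 0.07 ± 0.10 and COX8C at -0.10 ± 0.08. The direction was opposite in this last pair, whose libraries overlapped, and for NDUFA4 (0.01 ± 0.18) and its relative NDUFA4L2 (now COXFA4L2, -0.43 ± 0.16). NDUFA4 was first counted with complex I and is now taken as a subunit of complex IV. In complex V the copy ATP5L2 was at -0.33 ± 0.13 and ATP5L at -0.14 ± 0.16, and the highest gene was ATP5F1 (now ATP5PB, of the peripheral stalk, 0.32 ± 0.35).

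Whether guides against the members were more or less frequent in cells with high GFP was asked by comparing sorted with input cells. Respiration itself was not measured. For each guide limma was fitted to log2 of the normalised count plus 1, and a gene was called by a rank test on its guides (robust rank aggregation), adjusted over all 19112 genes with a threshold of 0.05. No member was called enriched, where 60 genes (0.314%) were, and none depleted, where 1 gene (0.00523%) was. The smallest adjusted p was 0.34 for enrichment (COX11) and 0.80 for depletion (NDUFA4). Limma on gene means also called no member, against 3 genes (0.0157%) in all. With no adjustment, 4 members (3.81%) had a rank test p under 0.05 for enrichment, against 5.47% of all genes, and 6 (5.71%) for depletion, against 5.53%. For limma on gene means 15 members (14.3%) did so, against 15.9%. These shares were near those of all genes. The median standard error of a member's log2 fold change was 0.55 over 3 against 3 libraries, so that at limma's 7.82 degrees of freedom a 95% interval reached 1.27 to each side. The adjusted threshold asked for more than that, since NDUFA4 at -2.72 ± 0.60 (SE) did not pass it.

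The median log2 fold change of the members was -0.48 and that of all genes -0.56, but with edgeR on summed reads these were 0.047 and 0.027. On the first scale it was -0.70 for complex I, -1.75 for complex II, -0.43 for complex III, -0.32 for complex IV and -0.43 for complex V. The value of complex II rested on 4 genes. These medians shifted when each library was left out in turn. They ranged from -0.78 to -0.31 for complex I, -1.98 to -1.33 for complex II and -0.66 to -0.11 for complex III. For complex IV the range was -0.35 to -0.15 and for complex V -0.69 to -0.25. The median of all genes ranged from -0.60 to -0.42 in the same runs. With the median in place of the mean over guides, complex I was at -0.18, complex IV at -0.076 and complex V at 0.13. Complex II was then at -1.05 and complex III at -0.55, and the median of all genes was -0.11. In the 3 sorted libraries the members' median was -0.41, -0.30 and -0.10, and that of all genes -0.22, -0.64 and -0.30, so the order of members and all genes differed between libraries.

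**Figure D3:**
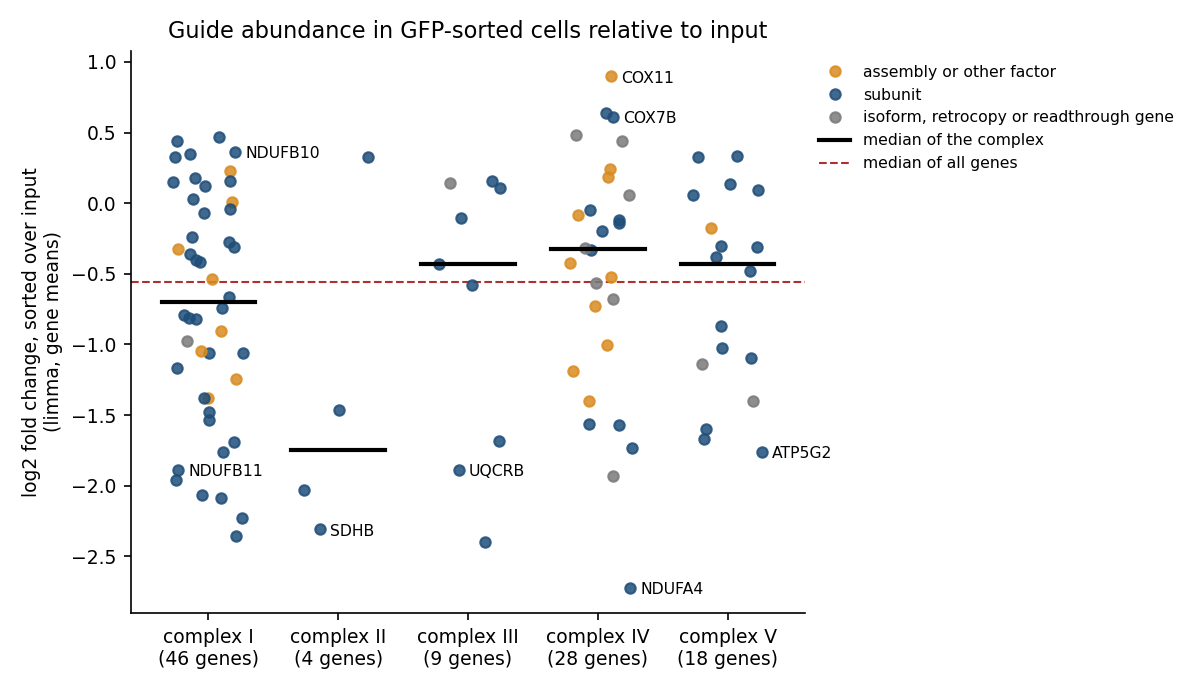
The vertical axis gives the log2 fold change of sorted over input cells from limma on gene means (3 against 3 libraries) for the 105 members by complex. Each point is 1 gene, coloured by role, black bars are medians of the complexes and the dashed line is the median of all genes at -0.56. The points spread on both sides of that line in each complex, with COX11 highest and NDUFA4 lowest.

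COX11, which inserts copper into complex IV, had the smallest enrichment p of the members. Its mean level over guides was 327, 379 and 317 normalised counts in input and 402, 729 and 869 in sorted cells. The groups did not overlap, and the log2 fold change was 0.90 ± 0.30 (SE). The rank test, whose null distribution is exact for independent ranks, gave p = 0.0028. After adjustment over all genes this was an adjusted p = 0.34, from the rank test on limma's guide fits. The guides are shown because all 4 had a positive log2 fold change, at 0.91, 1.15, 0.61 and 0.92, and 1 perfect site each.

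COX11 guide 1, chr17:54968287-54968306, plus strand: atagagccgataaaggggtaCGG
COX11 guide 2, chr17:54968341-54968360, plus strand: gacagcggccacgtaagtgaGGG
COX11 guide 3, chr17:54968504-54968523, minus strand: gggacaggaggtgccgagagAGG
COX11 guide 4, chr17:54968414-54968433, plus strand: ttcgagctcttaggccgccgCGG

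COX7B, a supernumerary subunit of complex IV, had the next smallest enrichment p. Its mean level was 206, 213 and 207 in input and 138, 511 and 461 in sorted cells, so that 1 sorted library lay below input and the others above it. The log2 fold change was 0.61 ± 0.53, with an adjusted p = 0.54 from the rank test on limma's guide fits. Its guides are shown because they differed in both comparisons and in the number of perfect sites, which was 1, 1, 2 and 3.

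COX7B guide 1, chrX:77902680-77902699, minus strand: aatcaggtgtacgtttctggTGG
COX7B guide 2, chrX:77902742-77902761, minus strand: ccatgtaacaatacagaaagTGG
COX7B guide 3, chrX:77902714-77902733, plus strand: ggtaatgctgtattagctagTGG
COX7B guide 4, chrX:77902644-77902663, plus strand: tcgaagcattcagcaaacaaTGG

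Their log2 fold changes in sorted cells were 0.96, 0.91, -0.52 and 1.09, and their ratios of input to pool were -0.02, -0.25, -0.73 and -1.37. NDUFB10 and NDUFAF6, of complex I, also had a small enrichment p before adjustment. NDUFB10, a supernumerary subunit, had a log2 fold change of 0.36 ± 0.18, with 3 of its 4 guides positive. NDUFAF6, an assembly factor, had one of -0.33 ± 0.60, its sorted libraries lying on both sides of input.

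NDUFA4 had the smallest depletion p of the members. Its mean level was 138, 171 and 174 normalised counts in input and 35.5, 13.9 and 25.7 in sorted cells. The groups did not overlap, and the log2 fold change was -2.72 ± 0.60, with an adjusted p = 0.80 from the rank test on limma's guide fits and an adjusted p = 0.18 from limma on gene means.

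NDUFA4 guide 1, chr7:10940041-10940060, minus strand: aacatgctccgccagatcatCGG
NDUFA4 guide 2, chr7:10939999-10940018, plus strand: agcggtcacgaacttacgctCGG
NDUFA4 guide 3, chr7:10938866-10938885, plus strand: cagttccaataaatacaaagAGG
NDUFA4 guide 4, chr7:10938810-10938829, minus strand: cattgttcaatccagatgttTGG

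These guides are shown because they did not move together. Guides 1 and 3 had 4 values of 0 among their 6 in sorted cells, where input held 188, 124 and 123 for guide 1 and 52.6, 113 and 128 for guide 3. Guide 4 went from 220, 250.4 and 302 to 56.99, 197 and 111. Guide 2, which cut in an intron, went from 167, 241 and 191 to 415, 251 and 313, and was the only one of the 4 with a positive log2 fold change (0.69).

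For NDUFB11 the log2 fold change was -1.89 ± 0.74, and the rank test on limma's guide fits gave an adjusted p = 0.84. The fold change was -0.85 with 10 added before log2 and -0.31 with edgeR on summed reads. Guide 2, at 65.8, 61.3 and 64.2 in input, was at 0 in all 3 sorted libraries. Guides 3 and 4 had positive log2 fold changes of 0.50 and 0.10. NDUFA3, another supernumerary subunit of complex I, was at -1.96 ± 0.50. ATP5G2 was at -1.76 ± 0.74, its sorted libraries being at -2.45, -0.14 and -2.69 relative to the input mean. With 10 added before log2 it was at -1.40, and with edgeR on summed reads at -0.84. COX18, which inserts a complex IV subunit into the membrane, was at -0.52 ± 0.55, close to the median of all genes (-0.56). UQCRB was at -1.89 ± 0.52.

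**Figure D4:**
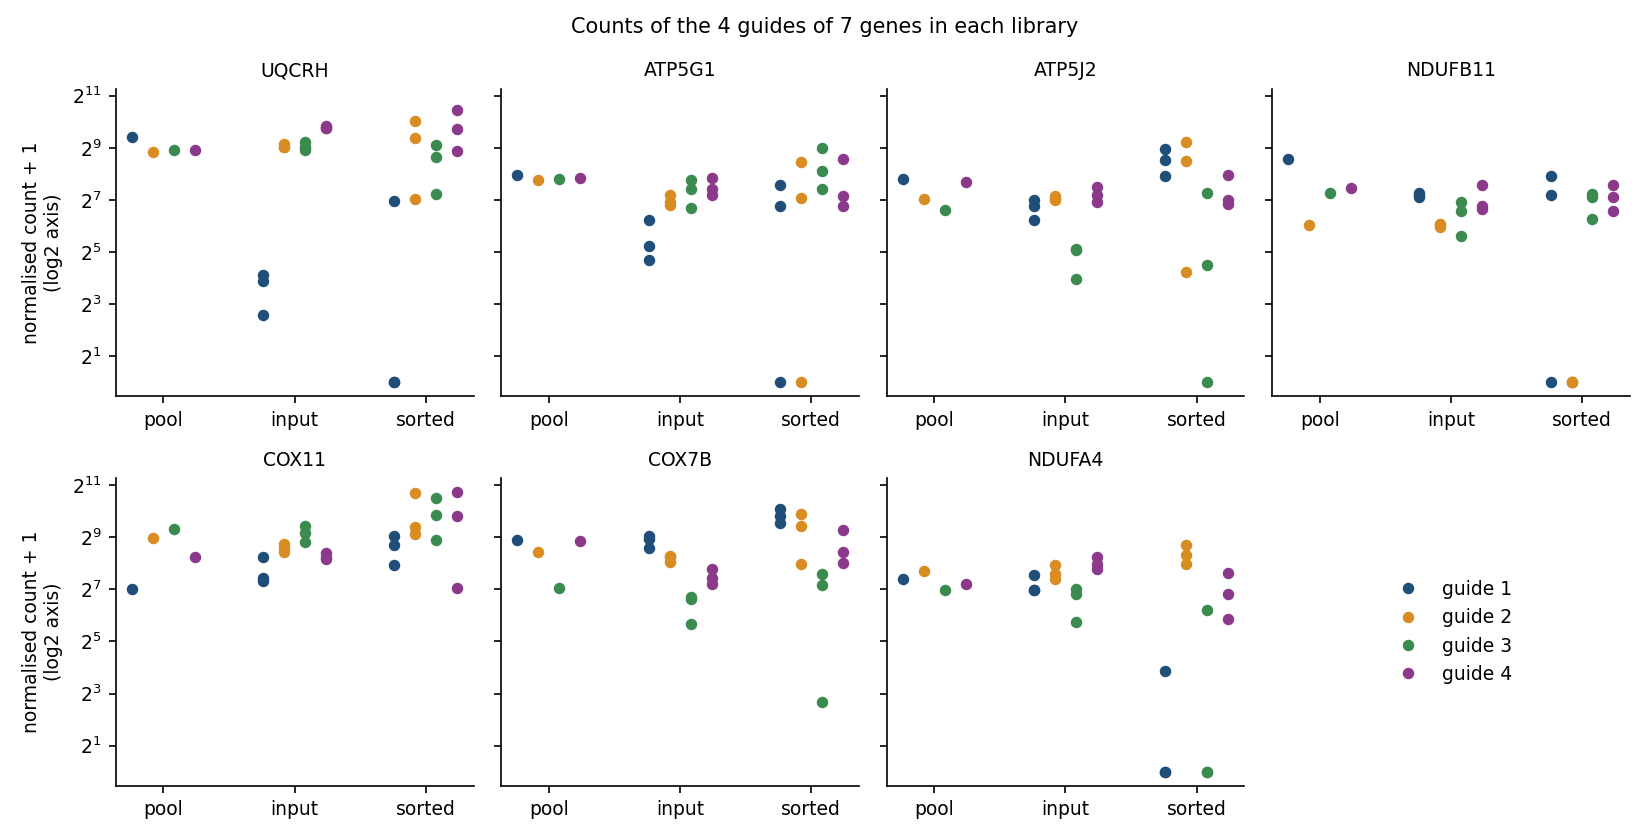
The vertical axes (log2) give the normalised count plus 1 of the 4 guides of 7 genes in the guide pool (1 library, scaled to the median targeting guide of the input), input (3 libraries) and sorted cells (3 libraries). Each point is 1 guide in 1 library. UQCRH guide 1 is the only one of these guides with input counts under 20 in all 3 input libraries, and values of 0 appear in sorted cells only.

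In complex II the smallest depletion p was that of SDHB (log2 fold change -2.31 ± 0.64, rank test adjusted p = 0.89 on limma's guide fits), followed by SDHA (-1.47 ± 0.66). SDHC was at -2.03 ± 0.65 and SDHD at 0.33 ± 0.30. The value of SDHB came from guides 3 and 4, which had 3 values of 0 among 6 in sorted cells, while guides 1 and 2 were both at -0.16. In complex III UQCRQ was at -2.40 ± 1.03, and UQCR11 (0.15 ± 0.21) and UQCRC1 (0.11 ± 0.31) had the smallest enrichment p. In complex V these were ATP5A1 (now ATP5F1A, the alpha subunit, -0.30 ± 0.42) and ATP5E (ATP5F1E, the epsilon subunit, 0.09 ± 0.30), and ATP5I (ATP5ME, the e subunit, at -1.67 ± 0.70) had the second smallest depletion p after ATP5G2. Sorted and input libraries overlapped for ATP5A1, ATP5E, UQCR11 and UQCRC1.

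One sorted library decided whether limma called members. Without the first-listed sorted library, limma on gene means called 8 members (7.62%) and 1174 of all genes (6.14%). COX11 (1.23 ± 0.16), COX7B (1.21 ± 0.21) and UQCRC2 (0.95 ± 0.12) were then higher in sorted cells, and COX7A2L, NDUFA2, NDUFA3, NDUFA4 and NDUFAB1 were lower, with limma adjusted p from 0.039 to 0.044. The rank test called no member there.

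Of 63 further genes of the pathway, 55 were measured, among them other assembly factors, cytochrome c and the genes of ubiquinone synthesis. None was called in sorted cells in either direction by the rank test or by limma, and 2 (3.64%) had a rank test p under 0.05 for enrichment, against 5.47% of all genes, and 2 for depletion, against 5.53%. For limma on gene means 10 (18.2%) did so, against 15.9%. Their median log2 fold change was -0.65, where that of all genes was -0.56. SDHAF1, an assembly factor of complex II (log2 fold change 0.45 ± 0.10), and COA3, one of complex IV (0.25 ± 0.50), had the smallest enrichment p. The 2 with a depletion p under 0.05, named after their values were seen, were LYRM7 and CYC1. LYRM7, an assembly factor of complex III, was at -2.93 ± 0.62, with its sorted libraries at -3.51, -3.18 and -2.10 relative to the input mean and an adjusted p = 0.80 from the rank test on limma's guide fits. CYC1, cytochrome c1 of complex III, was at -1.83 ± 1.10, mostly through 1 sorted library at -4.69. The median log2 ratio of input to pool was -0.10, against -0.01 for all genes, and 2 genes (3.64%, against 3.32%) were low, COQ5 (-0.90 ± 0.23), a methyltransferase of ubiquinone synthesis, and UQCC2 (-0.86 ± 0.06), an assembly factor of complex III. TTC19, also of complex III, followed at -0.57 ± 0.18.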

How the data were processed

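The submitters' processing notes name FastQC 0.11.9, cutadapt 3.3 and MAGeCK, with which the authors trimmed reads, assigned them to guides, normalised and tested. The deposited guide table holds 3 normalised counts per guide for input and 3 for sorted cells, with no replicate numbers, so libraries are numbered by their place. For the guide pool the deposited values are raw counts. Its title speaks of the Brunello library and the design text of unselected cells, so the source of its DNA is not settled here. The authors' deposited gene comparison (scores, p-values and log2 fold changes) was not used.

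Members and lists were chosen with earlier results of these data known. All values divided by 1 factor per library gave whole reads (100% within 0.1 read or a share of 1e-04). Differences were fitted over all guides with limma 3.58.1 in R 4.3.3 (lmFit, then eBayes with a trend), with 1 added to normalised counts before log2, guides at 0 in all 6 libraries being left out. Each guide's one-sided p became a rank percentile, and a gene was scored by robust rank aggregation (alpha 0.25) with its exact null for independent ranks and Benjamini-Hochberg adjustment. Fold changes and standard errors are from limma on means over guides. Steps were tested on simulated data. Guides (20 bases followed by NGG, both strands) were matched to hg38 chromosomes with up to 2 mismatches, and cut sites 3 bases from the PAM were annotated with the canonical transcripts of GENCODE 44. The replicates are labelled biological.

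Named were, per complex, the 2 genes with the smallest p in each direction, the 3 with the lowest and the 1 with the highest ratio to the pool, isoform pairs, and of the further pathway genes the 2 with the smallest enrichment p and the 3 with the lowest ratio. Guides are shown for the 4 members with the lowest ratio to the pool, the 2 with the smallest enrichment p and the 1 with the smallest depletion p, leaving out genes on chromosome 8. edgeR 4.0.16 (quasi-likelihood) was run on recovered reads summed per gene.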

Additional observations from a re-analysis of the deposited data

How the results depend on the processing

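No member was called by the rank test in either direction under any alternative run (pseudocount, scaling, input minimum, alpha of 0.1, threshold of 0.1, leaving out each library, and guides with 1 perfect site, which was added after the data were seen). The number called by limma on gene means was 0 under those of these settings that apply to it and with edgeR on recovered reads, apart from leaving out libraries, where it ranged from 0 to 8, the 8 being without the first-listed sorted library. edgeR called 52 of 19112 genes and no member. An unadjusted edgeR p under 0.05 was found for 11 of 105 members and 1537 of 19112 genes.

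The members' median of sorted over input stayed within the spread between libraries without each library in turn (-0.61 to -0.37). It was -0.26 with a pseudocount of 10 (all genes -0.30), -0.70 with equal totals (-0.77), -0.27 with libraries scaled to non-targeting guides (-0.35), -0.11 with the median over guides (-0.11) and 0.047 with edgeR on summed reads (0.027). The median of all genes moved with it, and the cause was not tested.

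The members' median ratio of input to pool was -0.42 when scaled to non-targeting guides (all genes -0.33), and 12 members (11.4%) were then low against 11.9% of all genes. It ranged from -0.095 to -0.068 without each input library, and the count of low members from 3 to 4, while the medians of complexes II, III and IV took both signs. The count was 1 (UQCRH) with a 2-fold limit, which 161 of all genes (0.842%) met, and 1 (ATP5G1) with guides of 1 perfect site, where fewer guides entered and 548 of 18736 genes (2.92%) were low. It was 3 with the median over guides, with COX7C in place of UQCRH. No paired analysis was possible because the deposited columns carry no replicate numbers.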
